A study of Mus musculus with 12 samples.

Results

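Differentiating G1E-ER4 cells were given DTPA, a chelator of zinc, or an siRNA that targets the zinc importer ZIP10, or both, and the question here is where the double treatment gave something other than the sum of its parts. For each gene the interaction was the DTPA effect in siZIP10 cells minus the DTPA effect in siControl cells, on the scale of log2(TPM + 1). TPM is a gene's share of the library's transcripts, corrected for transcript length and scaled so that a library sums to 1e+06, and 1 is a pseudocount that understates changes of genes with low TPM. A value of 0 means that the log2 changes of the single treatments add up to the log2 change of the double treatment, which is the same as their folds multiplying. The account covers 11 of the 12 deposited libraries and the 11379 of 55487 genes that averaged at least 1 TPM over them.

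The groups were siZIP10 plus DTPA (n = 3), siZIP10 (n = 3), siControl plus DTPA (n = 2 of 3 deposited) and siControl (n = 3). All cells were nucleofected 2 times, 24 h apart, with either siRNA, received 100 nM β-estradiol at the second nucleofection, and were harvested 24 h later. The DTPA groups received 25 µM of it from the same moment. G1E-ER4 is 1 line of mouse erythroid progenitors without GATA1 of their own, into which an estradiol-activated form of GATA1 was put, so reads of Gata1 may come from the introduced form. ZIP10 was lowered with an siRNA and with no rescue, zinc and ZIP10 protein were not measured in these files, and DTPA also binds other metal ions.

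ZIP10 is encoded by Slc39a10 and carries zinc into the cytosol. When cytosolic zinc is ample, the transcription factor MTF1 binds metal response elements and activates the metallothionein genes Mt1 and Mt2, whose products bind zinc, and Slc30a1, which encodes the exporter ZnT1. In erythroid maturation GATA1 shuts down progenitor genes, switches on globin, heme and red cell membrane genes, and precedes the last cell divisions.

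Replicate 3 of siControl plus DTPA carried, gene for gene over 55487 genes, the numbers of siZIP10 replicate 1, so it was left out and its group had 2 libraries. No other pair had more than 0.0121% of its values in common. The other libraries held 19.65 to 24.71 M recovered reads (1 M is 1e+06) and 15225 to 16147 genes above 0. Correlations across genes of log2(TPM + 1) were 0.988 to 0.991 within groups and 0.939 to 0.986 between groups. Of 12 erythroid markers, 11 were listed, and their summed level was 39445 to 47369 TPM in siZIP10 plus DTPA, 48529 to 52161 TPM in siZIP10, 51220 to 57126 TPM in siControl plus DTPA and 42759 to 49706 TPM in siControl. The labels call the replicates biological and do not say whether each was a separate culture, so a p-value measures only the spread between these libraries. In bulk RNA, fewer cells of a type and less RNA per cell cannot be told apart.

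Gene positions below are those of GENCODE mouse release 21 on GRCm38, the assembly of the mm10 build. Slc39a10 (chromosome 1, 46807544 to 46892852), the gene the siRNA targets, measured 5.36, 4.93 and 5.02 TPM in siZIP10 plus DTPA, 0.539, 0.507 and 0.837 TPM in siZIP10, 22.0 and 20.3 TPM in siControl plus DTPA and 2.78, 2.31 and 2.78 TPM in siControl. No pair of groups overlapped, and siZIP10 was the lowest. DTPA raised the transcript 8.14-fold in siZIP10 cells and 8.05-fold in siControl cells, both ratios of mean TPM. The interaction on log2(TPM + 1) was -0.70 (SE 0.16, limma adjusted p = 0.00604), but siZIP10 sits near the pseudocount. With a pseudocount of 0.1 the value was -0.10 (adjusted p = 0.81), and with recovered reads and limma's voom it was 0.06 (adjusted p = 0.883). The double level was 101% of the product of the single folds.

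Across all genes, the interaction passed the test (limma, Benjamini-Hochberg adjusted p under 0.05) for 3687 of 11379 genes (32.4%), with 1369 higher than the sum (12.0%) and 2318 lower (20.4%). The median over all tested genes was -0.02. Beside that, the double treatment against siControl called 66.6% of genes, DTPA in siZIP10 cells 60.4%, siZIP10 alone 30.6% and DTPA alone 28.8%. The split of the calls depends on the scale: 37.1% were higher here, against 54.2% when libraries were rescaled to their nuclear protein-coding genes (2118 higher, 1791 lower) and 47.3% with voom on recovered reads (1995 higher, 2221 lower). In 2505 of the 3687 genes (67.9%) the call held whichever single library was left out.

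The called genes fell into 3 kinds. For 2381 genes the double change went further in the direction of the sum (1531 down, 850 up). For 316 genes it fell short of the sum (181 where the sum was up, 135 where it was down). For 990 genes the double change had the opposite sign to the sum (606 below it, 384 above it), whether or not the sum and the double change each passed a test. The median size of the interaction on the log2 scale was 0.36 for genes that exceeded downward and 0.45 for genes that exceeded upward, against 0.13 for genes that were not called. An interaction of at least 1 in size was reached by 190 genes upward and 136 downward. Just inside the level limit of 1 TPM lay Ccdc50-ps (1.0004 TPM) and Gm45047 (1.0006 TPM), and just outside it Bicdl1 (0.9997 TPM) and Gm38375 (0.9985 TPM). Just inside the limit of the call lay Otud6b (0.25) and Csrnp1 (0.22), and just outside it Mrpl52 (0.36) and P4htm (0.61).

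**Figure D1:**
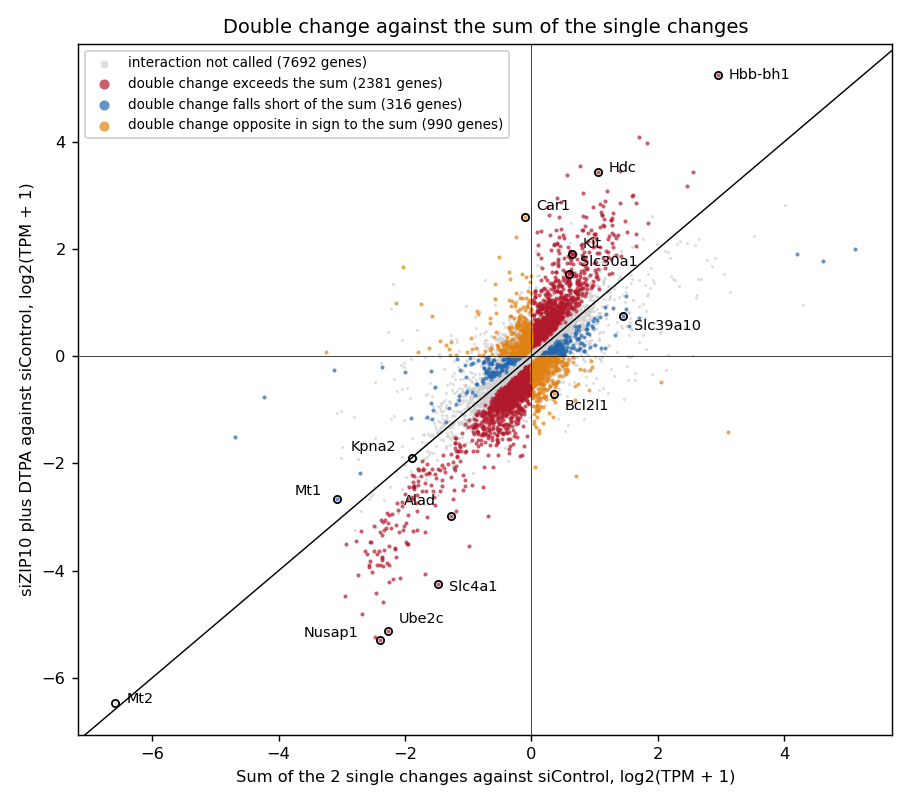
Log2 change of the double treatment against siControl (vertical axis) plotted against the sum of the log2 changes of siZIP10 alone and DTPA alone (horizontal axis) for 11379 genes, coloured by whether the double change exceeds the sum, falls short of it, reverses it or was not called. Ube2c and Slc4a1 lie far below the diagonal on this scale (interaction -2.84 and -2.77, with Ube2c above the sum by 23.4 TPM on untransformed TPM) and Car1 and Hbb-bh1 far above it (2.69 and 2.29).

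Among genes averaging 5 TPM or more whose call held whichever library was left out, 6 of the 8 lowest interaction values were those of cell division genes. They are shown first, with the promoters of Ube2c, Hmmr and Nusap1 from among them and that of Kpna2, a gene near the sum. Most promoters of the tested mitosis genes share a short sequence, the cell cycle genes homology region (CHR). It is a known binding element of the MuvB complexes that time late cell cycle genes. The windows run from 250 bases before to 50 bases after the RefSeq start, on the gene's strand, in build GRCm38.p6. The CHR was searched as TTTGAA on both strands (TTCAAA is its reverse) and is in capitals. The windows are Ube2c chr2:164769679-164769978 (plus strand), Hmmr chr11:40733388-40733687 (minus strand), Nusap1 chr2:119618048-119618347 (plus strand) and Kpna2 chr11:106999476-106999775 (minus strand).
Ube2c: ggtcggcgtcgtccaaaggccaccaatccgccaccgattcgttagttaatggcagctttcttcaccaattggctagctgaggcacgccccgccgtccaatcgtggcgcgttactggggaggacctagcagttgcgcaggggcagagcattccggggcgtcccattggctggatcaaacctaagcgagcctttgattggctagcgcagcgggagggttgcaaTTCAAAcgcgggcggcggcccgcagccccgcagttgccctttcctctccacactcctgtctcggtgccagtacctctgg
Hmmr: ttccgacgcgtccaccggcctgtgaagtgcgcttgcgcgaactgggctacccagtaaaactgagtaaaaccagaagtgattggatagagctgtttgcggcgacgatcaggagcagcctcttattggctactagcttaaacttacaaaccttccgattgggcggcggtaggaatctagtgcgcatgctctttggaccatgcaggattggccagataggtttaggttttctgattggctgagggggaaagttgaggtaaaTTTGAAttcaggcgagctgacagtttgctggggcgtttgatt
Nusap1: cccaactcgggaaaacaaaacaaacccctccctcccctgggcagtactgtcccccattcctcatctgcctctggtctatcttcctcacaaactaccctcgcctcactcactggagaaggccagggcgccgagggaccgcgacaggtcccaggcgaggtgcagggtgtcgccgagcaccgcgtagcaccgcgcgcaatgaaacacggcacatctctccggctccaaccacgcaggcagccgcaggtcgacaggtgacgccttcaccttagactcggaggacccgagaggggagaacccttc
Kpna2: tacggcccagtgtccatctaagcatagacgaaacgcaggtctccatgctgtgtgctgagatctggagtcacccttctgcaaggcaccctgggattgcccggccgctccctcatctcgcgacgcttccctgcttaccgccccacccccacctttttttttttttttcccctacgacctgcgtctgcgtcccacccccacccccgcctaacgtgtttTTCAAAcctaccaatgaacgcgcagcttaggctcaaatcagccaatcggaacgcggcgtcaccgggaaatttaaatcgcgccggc

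A window was at hand for 31 of the 36 tested mitosis genes, and 23 of the 31 held the CHR (74.2%). Of the 29 windows of genes whose interaction was called lower, 22 held it (75.9%). The share was 12.9% in the DNA replication list (4 of 31 windows), 11.9% among tested genes (917 of 7733) and 18.1% among all 27025 RefSeq genes with a window. Among the 4 shown, the match did not follow the interaction. Ube2c and Hmmr, far below the sum, held it. Nusap1, also far below the sum, did not, and Kpna2, at the sum, held it. Of other genes far below the sum, Kif4 held the match and Ccnb1 did not. A match is a description of letters and not of a bound site.

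Of 36 tested mitosis genes, 34 had an interaction below the sum on log2(TPM + 1), against 20.4% of all genes, 1 was above it and 1 was not called. The median was -1.11, against -0.02 over all genes. All 36 fell in each single treatment and in the double treatment against siControl, and in all 36 the 3 double libraries lay below the other 8, which was so for 31.1% of all tested genes. The direction of the interaction is a matter of scale: on untransformed TPM, 30 of the 36 were called above the sum and 0 below it, with a median of 18.0% of the siControl level. Against siControl, the median level over the 36 genes was 5.33% with both treatments, 40.5% with siZIP10 and 48.6% with DTPA, and the product of the single folds would be 19.2%. The double level lay below that product in 35 of 36 genes, while the TPM lost in the single treatments together exceeded the whole siControl level in 28 of 36 genes.

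Ube2c (chromosome 2, 164769898 to 164778822) encodes the ubiquitin-conjugating enzyme that works with the anaphase-promoting complex. Its level was 4.88, 4.62 and 4.72 TPM in siZIP10 plus DTPA, 80.2, 85.0 and 82.1 TPM in siZIP10, 99.0 and 96.0 TPM in siControl plus DTPA and 194, 204 and 198 TPM in siControl. The 3 double libraries sat far below all others, and the single treatments lay between them and siControl. DTPA brought the transcript to 0.0575 of its level in siZIP10 cells and to 0.491 of it in siControl cells, an interaction of -2.84 (SE 0.05, limma adjusted p = 6.06e-10).

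Nusap1 (chromosome 2, 119618298 to 119651244), which encodes a protein that bundles spindle microtubules, had 2.13, 2.103 and 1.74 TPM in siZIP10 plus DTPA, 51.6, 47.7 and 50.4 TPM in siZIP10, 50.3 and 51.0 TPM in siControl plus DTPA and 124, 111 and 116 TPM in siControl. The single treatments overlapped each other and the double libraries overlapped none of the rest. Its interaction was -2.90 (SE 0.09, limma adjusted p = 1.13e-08). Ccnb1 (chromosome 13, 100778650 to 100786570), the B-type cyclin that drives entry into mitosis, had 9.42, 9.47 and 10.9 TPM in siZIP10 plus DTPA, 101, 101 and 102 TPM in siZIP10, 103 and 99.1 TPM in siControl plus DTPA and 189.6, 177 and 179.6 TPM in siControl. The double libraries again stood apart from the other 8, and the interaction was -2.39 (SE 0.08, limma adjusted p = 1.34e-08).

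Hmmr (chromosome 11, 40701395 to 40733422), a spindle assembly factor, reached 0.672, 0.731 and 0.531 TPM in siZIP10 plus DTPA, from 20 to 33 recovered reads, beside 23.8, 22.5 and 21.9 TPM in siZIP10, 28.4 and 28.7 TPM in siControl plus DTPA and 63.7, 59.9 and 60.9 TPM in siControl. At such levels the pseudocount pulls the value towards 0, and the interaction was still -2.77 (SE 0.08). Kif4 (chromosome X, 100625737 to 100727214), the chromosome-condensing kinesin, had an interaction of -2.24 (SE 0.11), with 0.514, 0.676 and 0.445 TPM in siZIP10 plus DTPA from 17 to 31 reads. Nusap1, Ube2c, Hmmr and Kif4 changed sign on untransformed TPM, with differences of 18.5, 23.4, 10.8 and 5.73 TPM above the sum. Esco2 (chromosome 14, 65819038 to 65833994), which acetylates cohesin to hold sister chromatids together, did not change sign, with 1.46, 1.32 and 1.43 TPM in siZIP10 plus DTPA, 18.8, 18.0 and 19.4 TPM in siZIP10, 19.2 and 19.4 TPM in siControl plus DTPA and 29.4, 27.1 and 25.2 TPM in siControl and an interaction of -2.56.

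The rest of the list followed at smaller size. The proliferation marker Mki67 had an interaction of -1.64, the topoisomerase gene Top2a -1.57, and the mitotic kinase genes Aurka and Plk1 -1.45 and -1.37. Cdca8, which encodes borealin of the chromosomal passenger complex, was the 1 gene above the sum, at 0.13 (SE 0.04, limma adjusted p = 0.0489). That call was lost with the replicate block, with a pseudocount of 0.1, with no filter, with no trend on mean level, and without any single library other than siZIP10 plus DTPA replicate 2. Ncaph, a condensin subunit gene, was not called. Kpna2, an importin gene that is not in the list, gives the contrast of a gene that falls and adds up on log2(TPM + 1). Its mean lay above the sum on untransformed TPM. It had 43.2, 46.2 and 47.6 TPM in siZIP10 plus DTPA, 83.1, 86.2 and 86.5 TPM in siZIP10, 93.2 and 93.3 TPM in siControl plus DTPA and 174, 171 and 173 TPM in siControl, and its interaction was -0.00 with a 95% interval of -0.12 to 0.11.

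**Figure D2:**
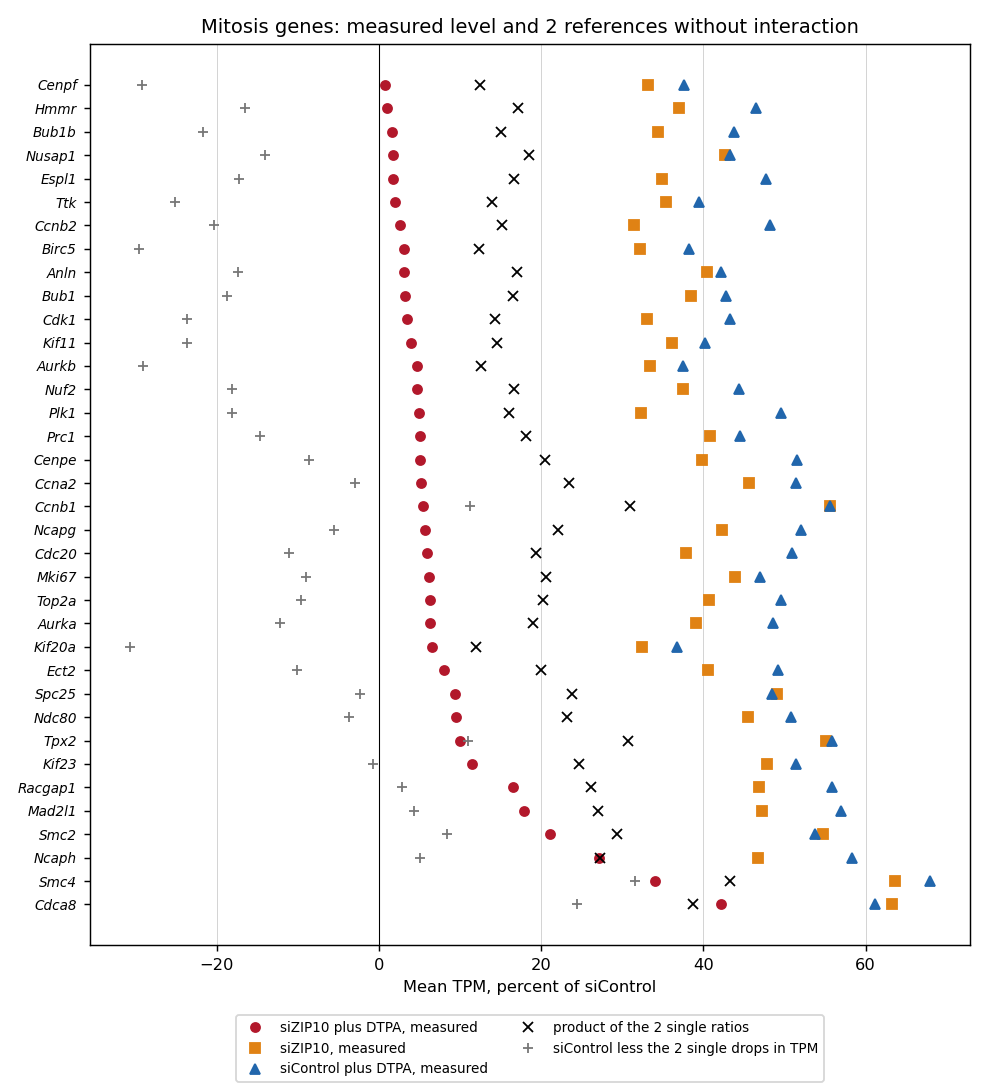
Level of each of the 36 tested mitosis genes in percent of its siControl mean with both treatments, with siZIP10 and with DTPA, beside the level given by the product of the single folds and that given by adding the single TPM changes. The double level lies below the product in 35 of 36 genes, with medians of 5.33% and 19.2%.

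DNA replication genes fell in nearly the same way in the single treatments (34 of 38 with siZIP10 and 33 of 38 with DTPA, against 17.5% and 18.8% of all genes), but fewer of them departed from the sum. The interaction was below the sum for 16 of 38 (20.4% of all genes) and above it for 2 (12.0%), with a median of -0.25, and on untransformed TPM for 0 and 12. The helicase subunit genes were among the lowest. Mcm5 (chromosome 8, 75109569 to 75128439) had 5.01, 4.07 and 5.78 TPM in siZIP10 plus DTPA, 53.9, 47.1 and 46.8 TPM in siZIP10, 46.5 and 47.8 TPM in siControl plus DTPA and 104, 104 and 104 TPM in siControl, an interaction of -1.96 (SE 0.14). Mcm6 was at -1.48, the origin licensing factor gene Cdc6 at -1.35 and the ribonucleotide reductase subunit gene Rrm2 at -1.26. Mcm10 and Rfc2 were above the sum, at 0.51 and 0.48. Pcna, the sliding clamp gene, added up on log2(TPM + 1), with 29.3, 28.5 and 27.4 TPM in siZIP10 plus DTPA, 43.3, 41.2 and 38.4 TPM in siZIP10, 40.1 and 44.5 TPM in siControl plus DTPA and 59.2, 57.8 and 59.2 TPM in siControl. Of 22 genes of homologous recombination and the Fanconi pathway, 6 were below the sum and 2 above it (0 and 6 on untransformed TPM), shares near the 20.4% and 12.0% of all genes. Leaving out single libraries gave 4 to 6 below it, and 1 above it without siControl plus DTPA replicate 1.

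Red cell membrane genes were mostly below the sum, and here each single treatment left the median level close to siControl. Of 26 tested genes, 18 were below the sum and 6 above it (median -0.45), against 20.4% and 12.0% of all genes. On the other 5 scales tried 17 were below and 6 or 7 above. DTPA lowered 19 of the 26 in siZIP10 cells (37.3% of all genes) and 9 in siControl cells (18.8%). The double level of the list was 72.7% of siControl at the median, beside 94.4% with siZIP10 and 96.5% with DTPA. Slc4a1 (chromosome 11, 102348824 to 102366203) encodes band 3, the anion exchanger of the red cell membrane. It had 23.2, 21.7 and 22.8 TPM in siZIP10 plus DTPA, 317, 296 and 299.9 TPM in siZIP10, 241 and 226 TPM in siControl plus DTPA and 442, 452 and 442 TPM in siControl, and no pair of groups overlapped. DTPA brought the transcript to 0.0740 of its level in siZIP10 cells and to 0.525 of it in siControl cells, an interaction of -2.77 (SE 0.06, limma adjusted p = 8.62e-10).

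Dmtn, the gene of the membrane skeleton protein dematin, had 8.28, 7.03 and 7.81 TPM in siZIP10 plus DTPA, 46.0, 43.5 and 47.0 TPM in siZIP10, 23.3 and 23.4 TPM in siControl plus DTPA and 45.6, 49.2 and 49.2 TPM in siControl. The double libraries lay below all the others, DTPA alone lay between them and siControl, and siZIP10 alone overlapped siControl. The interaction was -1.41 (SE 0.09). Other genes of the membrane skeleton went the same way, tropomodulin (Tmod1, -1.26) and ankyrin (Ank1, -0.91). Epb41, which encodes protein 4.1, was a reversal (-0.87). The erythroid carbonic anhydrase genes parted: Car2 was at -1.09, while Car1 (chromosome 3, 14766216 to 14808368) had the highest interaction among the genes named here, at 2.69 (SE 0.16, limma adjusted p = 8.83e-07). Car1 had 383, 397 and 407 TPM in siZIP10 plus DTPA, 42.3, 36.1 and 51.3 TPM in siZIP10, 96.8 and 84.8 TPM in siControl plus DTPA and 67.1, 60.00 and 66.7 TPM in siControl. It was below siControl with siZIP10, above it with DTPA and several times higher with both. Cd44, an adhesion receptor gene that falls in normal red cell maturation, was above the sum too (0.93).

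Of 18 tested heme synthesis genes, 10 were below the sum, against 20.4% of all genes, and 1 was above it, against 12.0% (median -0.33). Alad (chromosome 4, 62509169 to 62519918), the zinc-dependent porphobilinogen synthase, had 66.4, 61.4 and 64.8 TPM in siZIP10 plus DTPA, 364, 339 and 339 TPM in siZIP10, 317 and 313 TPM in siControl plus DTPA and 515, 514 and 514 TPM in siControl. The groups were apart in every pair, the double lowest, and the interaction was -1.71 (SE 0.05, limma adjusted p = 1.13e-08). The mitochondrial iron importer gene Slc25a37 was at -1.21, the enzyme gene Cpox at -0.95, and Ppox was the 1 gene above the sum (0.19), not called without siControl plus DTPA replicate 2. Alas2, the first and rate-limiting erythroid enzyme, rose with each treatment and with both, where it fell short of the sum. It had 2367, 2343 and 2421 TPM in siZIP10 plus DTPA, 2369, 2235 and 2257 TPM in siZIP10, 2495 and 2449.9 TPM in siControl plus DTPA and 1992, 2075 and 2042 TPM in siControl, an interaction of -0.22 (limma adjusted p = 0.00192).

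Of 9 tested globin genes, 3 were above the sum (12.0% of all genes) and 4 below it (20.4%). The embryonic β-like gene Hbb-bh1 (chromosome 7, 103841637 to 103843164) had 5551, 5462 and 5248 TPM in siZIP10 plus DTPA, 132, 145 and 139 TPM in siZIP10, 1143 and 1134 TPM in siControl plus DTPA and 139.6, 145 and 142 TPM in siControl. The siZIP10 and siControl libraries overlapped, and DTPA raised it 39.1-fold in siZIP10 cells and 7.99-fold in siControl cells. The interaction was 2.29 (SE 0.05, limma adjusted p = 2.33e-09). The embryonic Hbb-y was also above the sum (0.89), with 251, 259 and 255 TPM in siZIP10 plus DTPA, 32.1, 30.7 and 27.3 TPM in siZIP10, 101 and 108 TPM in siControl plus DTPA and 28.0, 23.6 and 17.3 TPM in siControl. Hbb-bh2 was called above the sum as well, on 11 to 17 reads in the double libraries.

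The 4 globin genes below the sum were Hba-a1, Hba-a2, Hbq1b and Hbb-bs. Hba-a1, an adult α-globin gene, had 4212, 4194 and 4043 TPM in siZIP10 plus DTPA, 11081, 10582 and 11039 TPM in siZIP10, 11761 and 11906 TPM in siControl plus DTPA and 10501, 12471 and 11998 TPM in siControl, an interaction of -1.42. Hba-a2 was at -1.69, Hbq1b at -1.23 and the adult β-globin gene Hbb-bs at -0.42, whereas the adult Hbb-bt and the embryonic Hba-x were not called. The division of reads among near-identical α-globin and β-globin copies is uncertain, and single values of these pairs carry that uncertainty.

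**Figure D3:**
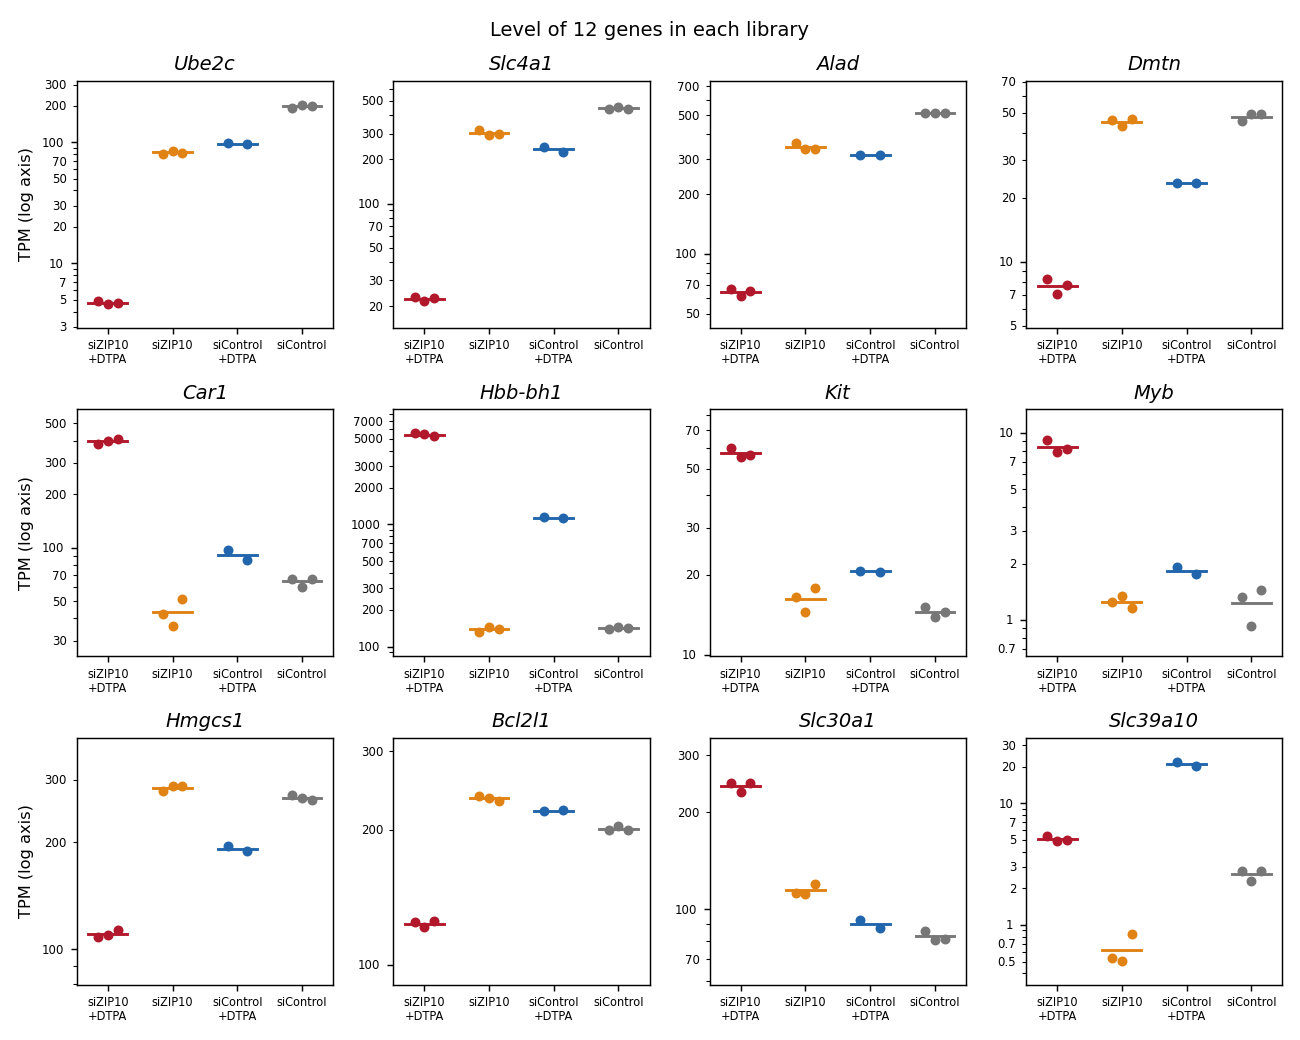
TPM in each library (log axis) for 12 genes, by group, 1 point per library with the group mean as a line. In siZIP10 plus DTPA, Ube2c (4.62 to 4.88 TPM), Slc4a1, Alad, Dmtn, Hmgcs1 and Bcl2l1 lie below every other library, and Car1 (383 to 407 TPM), Hbb-bh1, Kit, Myb and Slc30a1 lie above every other library.

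Progenitor genes, which GATA1 normally represses, were more often above the sum than below it. Of 13 tested, 7 were above the sum, against 12.0% of all genes, and 1 below it (median 0.37). The stem cell factor receptor gene Kit (chromosome 5, 75574916 to 75656722) had 59.8, 55.6 and 56.5 TPM in siZIP10 plus DTPA, 16.5, 14.5 and 17.8 TPM in siZIP10, 20.8 and 20.49 TPM in siControl plus DTPA and 15.2, 13.8 and 14.5 TPM in siControl. All 3 double libraries lay above the other 8, as they did for 19.7% of all tested genes, and the interaction was 1.28 (SE 0.10, limma adjusted p = 5.66e-06). Myb, a transcription factor gene of cycling progenitors, had 9.13, 7.86 and 8.20 TPM in siZIP10 plus DTPA, 1.24, 1.33 and 1.16 TPM in siZIP10, 1.92 and 1.75 TPM in siControl plus DTPA and 1.32, 0.933 and 1.44 TPM in siControl, an interaction of 1.72 (SE 0.18). Gata2, the GATA factor that GATA1 replaces, had 80.7, 76.7 and 74.1 TPM in siZIP10 plus DTPA, 32.9, 33.0 and 33.3 TPM in siZIP10, 40.1 and 38.7 TPM in siControl plus DTPA and 37.6, 39.9 and 41.6 TPM in siControl. It was below siControl with siZIP10, overlapped siControl with DTPA, and was above all other libraries with the double treatment (1.21).

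Spi1, the gene of the myeloid factor PU.1, was at 1.16, Lyl1 at 1.07 and Myc at 0.92, and Lmo4 was the 1 progenitor gene below the sum (-0.44). Among 20 erythroid transcription factors and regulators, 3 were above and 5 below the sum, shares near the 12.0% and 20.4% of all genes and a balance that turned to 8 and 4 when libraries were rescaled to nuclear protein-coding genes. The erythropoietin receptor gene Epor was at -0.79, Nfe2 at -0.67, Klf3 at -0.60 and Tal1 at -0.44, while Stat5a was above the sum at 0.74. Gata1 itself (-0.10), Klf1 and Gfi1b were not called. Genes of terminal maturation were below the sum in 13 of 18 cases and above it in 0, with Trim10 at -1.18, Ypel4 at -0.98 and Tspo2 at -0.95. For Ypel4 and Tspo2 the double change fell short of the sum: Tspo2 had 10.6, 11.6 and 12.6 TPM in siZIP10 plus DTPA, 21.8, 21.2 and 21.0 TPM in siZIP10, 11.0 and 11.6 TPM in siControl plus DTPA and 10.3, 9.27 and 11.5 TPM in siControl, so the higher level with siZIP10 was absent with both.

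Markers of other blood cells were low, and each set summed highest in siZIP10 plus DTPA. The 8 megakaryocyte markers summed to 57.3 to 58.5 TPM in siZIP10 plus DTPA, 17.2 to 18.7 TPM in siZIP10, 25.7 to 26.7 TPM in siControl plus DTPA and 16.2 to 17.5 TPM in siControl, with Ppbp at 0 in all libraries. Of the 4 tested, Gp1ba (1.27), Itga2b (0.75) and Itgb3 (0.72) were above the sum, against 12.0% of all genes. The 8 mast cell and basophil markers summed to 20.8 to 22.7 TPM in siZIP10 plus DTPA, 1.69 to 2.18 TPM in siZIP10, 2.00 to 2.49 TPM in siControl plus DTPA and 0.832 to 1.26 TPM in siControl, nearly all of it Hdc, with Cma1, Fcer1a, Mcpt8 and Ms4a2 at 0. Hdc (chromosome 2, 126593667 to 126619299), the gene of histidine decarboxylase, had 20.7, 21.5 and 22.5 TPM in siZIP10 plus DTPA, 2.08, 1.70 and 1.69 TPM in siZIP10, 2.00 and 2.49 TPM in siControl plus DTPA and 1.21, 0.832 and 1.26 TPM in siControl, an interaction of 2.38. Myeloid markers summed to 5.86 to 6.80 TPM in siZIP10 plus DTPA and to 2.33 to 5.16 TPM in the other libraries, with Elane, Itgam, Ly6g, Mpo and S100a8 at 0. Lymphoid markers summed to 3.36 to 4.18 TPM in siZIP10 plus DTPA and to 0.564 to 1.80 TPM in the other libraries, with Cd8a, Il7r and Ms4a1 at 0. The interaction was not called for the 1 tested myeloid marker (0.49) or the 1 tested lymphoid marker (0.94). The part of all these blood cell markers in the results on erythroid and progenitor genes was not tested.

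Other genes far above the sum had no list. Tph1 (chromosome 7, 46644641 to 46672537), the tryptophan hydroxylase gene of serotonin synthesis, had 19.1, 18.2 and 17.4 TPM in siZIP10 plus DTPA, 2.63, 2.26 and 2.57 TPM in siZIP10, 1.52 and 1.72 TPM in siControl plus DTPA and 2.19, 1.68 and 1.52 TPM in siControl, an interaction of 2.55 (SE 0.16). Alpk3 (chromosome 7, 81057600 to 81105612), an atypical kinase gene, had 64.6, 59.9 and 61.4 TPM in siZIP10 plus DTPA, 4.00, 4.34 and 4.37 TPM in siZIP10, 9.67 and 9.94 TPM in siControl plus DTPA and 3.39, 2.77 and 2.88 TPM in siControl, an interaction of 2.15. Both were several times higher in the double libraries than in any other library, and the change with DTPA alone was called for Alpk3 and not for Tph1. Il2rg (chromosome X, 101264378 to 101268255), the common cytokine receptor γ chain gene, was at 1.96, with 17.7, 17.6 and 18.5 TPM in siZIP10 plus DTPA and 2.59 to 3.86 TPM elsewhere. Tph1 and Il2rg, like Hdc, stayed under 5 TPM in every library outside siZIP10 plus DTPA. They passed the limit of 5 TPM for genes named by rank only through the double libraries. In the other direction stood Creb3l3 (chromosome 10, 81084324 to 81098874), a membrane-bound transcription factor gene. It had 2.24, 1.48 and 2.68 TPM in siZIP10 plus DTPA, 33.2, 33.3 and 31.1 TPM in siZIP10, 10.7 and 9.40 TPM in siControl plus DTPA and 23.0, 23.8 and 23.3 TPM in siControl, so that siZIP10 alone was above siControl and the double lowest, an interaction of -2.29.

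The zinc response itself departed from the sum in 2 of its 3 MTF1 targets. Metal response elements were searched as TGCACNC and TGCGCNC on both strands and are in capitals in the windows of Slc30a1, chr1:191906531-191906830 (plus strand), and Mt1, chr8:94178839-94179138 (plus strand).
Slc30a1: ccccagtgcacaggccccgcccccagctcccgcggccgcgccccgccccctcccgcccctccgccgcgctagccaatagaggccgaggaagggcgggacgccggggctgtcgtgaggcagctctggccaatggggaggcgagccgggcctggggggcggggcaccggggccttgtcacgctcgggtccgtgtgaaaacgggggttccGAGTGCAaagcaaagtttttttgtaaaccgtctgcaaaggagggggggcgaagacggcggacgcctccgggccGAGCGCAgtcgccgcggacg
Mt1: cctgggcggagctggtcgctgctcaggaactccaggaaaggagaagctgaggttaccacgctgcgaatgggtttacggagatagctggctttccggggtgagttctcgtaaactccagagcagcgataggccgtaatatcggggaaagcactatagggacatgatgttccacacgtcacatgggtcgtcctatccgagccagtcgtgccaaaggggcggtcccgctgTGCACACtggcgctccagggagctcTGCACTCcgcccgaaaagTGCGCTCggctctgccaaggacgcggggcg

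All 3 windows of MTF1 targets held the element, as did 36.9% of windows of tested genes and 25.6% of all. Slc30a1 (chromosome 1, 191906767 to 191913247) had 247, 232 and 247 TPM in siZIP10 plus DTPA, 112, 112 and 120.1 TPM in siZIP10, 92.5 and 87.6 TPM in siControl plus DTPA and 85.9, 80.4 and 81.2 TPM in siControl. The double libraries lay above all others, and the interaction was 0.95 (SE 0.06, limma adjusted p = 1.92e-06). DTPA raised Slc30a1 2.11-fold in siZIP10 cells, and its change in siControl cells was not called (1.09-fold, limma adjusted p = 0.068). Mt1 and Mt2, unlike Slc30a1, fell with DTPA in both kinds of cells. Mt1 (chromosome 8, 94179082 to 94180327) had 280.2, 268 and 259 TPM in siZIP10 plus DTPA, 1845, 2106 and 2039 TPM in siZIP10, 170.1 and 175 TPM in siControl plus DTPA and 1627, 1804 and 1689 TPM in siControl. DTPA brought Mt1 to 0.135 of its level in siZIP10 cells and to 0.101 of it in siControl cells, so its fall was smaller with the knockdown (0.41, limma adjusted p = 0.00257), though the difference on untransformed TPM was -193.7 TPM. Mt2, at 21.4, 26.2 and 18.6 TPM in siZIP10 plus DTPA and 14.96 to 19.2 TPM in siControl plus DTPA, was not called (0.11, limma adjusted p = 0.674), but was called on untransformed TPM at -369.0 TPM.

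Of 9 tested ZIP importer genes, 2 were called below the sum on this scale, a share near the 20.4% of all genes. The 2 were Slc39a8 (-0.42) and Slc39a10, whose call was lost with a pseudocount of 0.1 and with voom. Above the sum were 0 (0 or 1 under the other settings), against 12.0% of all genes. Of 6 ZnT exporter genes, Slc30a1 was above the sum, against 12.0% of all genes. Slc30a10 (-0.42), Slc30a9 (-0.32) and Slc30a5 (-0.22) were below it, against 20.4%.

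Cholesterol synthesis genes were below the sum almost without exception. On this scale 24 of 26 were called lower and 0 higher (median -0.62), against 20.4% and 12.0% of all genes. On the other 5 scales 24 or 25 were lower. The list's median level was 45.1% of siControl with both treatments, 94.3% with siZIP10 and 80.3% with DTPA. HMG-CoA synthase, an early enzyme of the pathway encoded by Hmgcs1 (chromosome 13, 119690379 to 119708260), had 109, 109.6 and 114 TPM in siZIP10 plus DTPA, 279, 288 and 288 TPM in siZIP10, 195 and 189 TPM in siControl plus DTPA and 271, 267 and 264 TPM in siControl. It was slightly above siControl with siZIP10, below with DTPA and lowest with both, an interaction of -0.88 (SE 0.04). Squalene synthase (Fdft1) had the lowest value of the list (-1.21, SE 0.03, limma adjusted p = 3.96e-09), with 99.7, 98.2 and 98.7 TPM in siZIP10 plus DTPA, 287, 283 and 282 TPM in siZIP10, 228 and 224 TPM in siControl plus DTPA and 281, 283 and 275 TPM in siControl. Fdps was at -1.15, Idi1 at -1.05 and Lss at -0.93. The squalene epoxidase gene Sqle was at -0.66, and Dhcr7 and Tm7sf2 were not called.

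**Figure D4:**
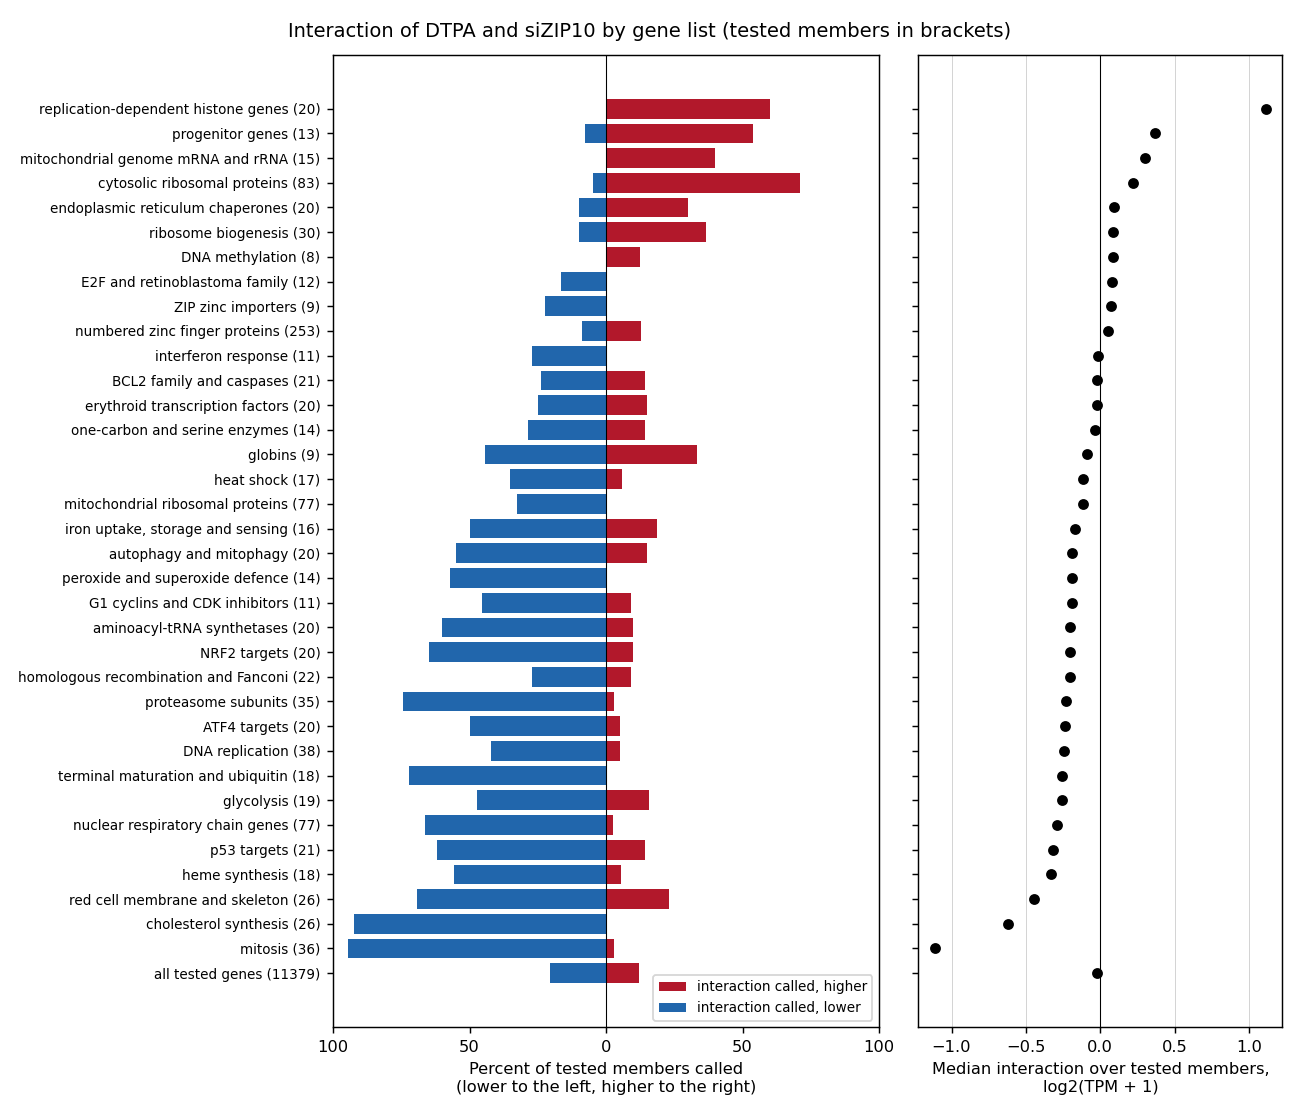
Percent of each list's tested members with an interaction called lower (to the left) or higher (to the right), beside the median interaction on log2(TPM + 1), with all tested genes in the lowest row. Median values of mitosis (-1.11, but above 0 on untransformed TPM), cholesterol synthesis (-0.62) and red cell membrane (-0.45) lie below 0, and that of progenitor genes (0.37) above it.

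A strict reversal was counted where both the sum and the double change passed the test against siControl with opposite signs. There were 116, of which 89 were up by the sum and down by the double and 27 the other way. Their number was 75 without siControl replicate 2 and 70 without siControl replicate 3. The following 3 genes were picked for their size after the values were seen. Tagln2, an actin-binding protein gene, had 392, 414 and 411 TPM in siZIP10 plus DTPA, 171, 166 and 168 TPM in siZIP10, 215 and 208 TPM in siControl plus DTPA and 217, 202 and 216 TPM in siControl, an interaction of 1.26. Dyrk3, a kinase gene also known from erythroid cells, had 25.9, 24.7 and 23.7 TPM in siZIP10 plus DTPA, 40.2, 35.8 and 35.7 TPM in siZIP10, 44.1 and 43.9 TPM in siControl plus DTPA and 28.6, 30.8 and 26.8 TPM in siControl, an interaction of -1.17. Each single treatment was above siControl for Dyrk3, and the double was below it. Bcl2l1 (chromosome 2, 152780668 to 152831728), the gene of the survival protein BCL-XL, had 124, 121 and 125 TPM in siZIP10 plus DTPA, 239, 236 and 232 TPM in siZIP10, 220.2 and 221 TPM in siControl plus DTPA and 199.7, 204 and 200.0 TPM in siControl. Both single treatments lay above siControl without overlap and the double below it, an interaction of -1.06 (SE 0.03, limma adjusted p = 1.27e-08).

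The p53 targets were mostly higher with each single treatment and mixed with both. With siZIP10 alone 12 of 21 were higher and 0 lower (13.1% and 17.5% of all genes), with DTPA alone 12 were higher and 1 lower (9.98% and 18.8%), and with both 8 were higher and 7 lower (26.7% and 39.9%). The interaction was below the sum for 13 of 21, against 20.4% of all genes, with a median of -0.32. It was above the sum for 3, a share near the 12.0% of all genes. The number above the sum was 1 with the replicate block, and 1 without siZIP10 plus DTPA replicate 1, siZIP10 replicate 2 or 3, siControl plus DTPA replicate 2 or siControl replicate 2. Ccng1, a cyclin G gene, had 299, 299 and 310.3 TPM in siZIP10 plus DTPA, 376, 364 and 370.2 TPM in siZIP10, 387 and 391 TPM in siControl plus DTPA and 326, 320.4 and 319 TPM in siControl, and was a strict reversal (-0.56). The gene of the cell cycle inhibitor p21, Cdkn1a, had 155, 158 and 161 TPM in siZIP10 plus DTPA, 189.5, 199.6 and 193 TPM in siZIP10, 202 and 197 TPM in siControl plus DTPA and 162, 181 and 169 TPM in siControl, also a strict reversal (-0.52). Trp53inp1 and Sesn1 were strict reversals downward as well. Of 21 genes of the BCL2 family and the caspases, 3 were above the sum and 5 below it (5 and 5 after rescaling to nuclear protein-coding genes), shares near the 12.0% and 20.4% of all genes. The 3 became 1 without siControl plus DTPA replicate 2. The ends of this list were held by Bok at 1.34 and Bcl2l1 at -1.06.

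The other reversals named by rule were mostly low in level. The hyaluronidase gene Hyal3 (-1.56) and the calcium-binding protein gene S100a1 (-1.51) were lower with both treatments than in any other library, with 2.22, 3.46 and 3.04 TPM and 3.50, 6.93 and 6.03 TPM. Csta2 (-1.51), from the cystatin A family, was too, with 6.55, 7.71 and 6.77 TPM. Defb4 (-2.14), a defensin gene, rests on 1 to 6 reads in the double libraries. The sums of these 4 genes did not pass the test (limma adjusted p = 0.940 for Defb4, 0.708 for Hyal3, 0.836 for S100a1 and 0.0623 for Csta2), so none was a strict reversal. Where the sum was downward and the double fell short of it stood Sapcd2 (1.31), Cyba (0.93), the NADPH oxidase subunit gene, Gemin6 (0.77), of the SMN complex, and Tcf19 (0.71). Sapcd2 had 8.80, 10.5 and 10.2 TPM in siZIP10 plus DTPA, 5.09, 5.42 and 3.44 TPM in siZIP10, 9.55 and 9.08 TPM in siControl plus DTPA and 11.5, 11.7 and 13.3 TPM in siControl. The double libraries overlapped those with DTPA alone, and siZIP10 alone was lower than all others. Tuft1 (-0.76) and the pseudogenes Rpl34-ps2 (-0.98) and Rpl27-ps3 (1.57), which share sequence with their parent ribosomal genes, were also named by rule. The double change of Rpl27-ps3 against siControl did not pass the test (limma adjusted p = 0.384), so it was not a strict reversal.

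DTPA moved 126 genes in opposite directions in the 2 backgrounds, with both effects called: 43 rose in siZIP10 cells and fell in siControl cells, and 83 the other way. That number was 73 without siControl plus DTPA replicate 1 and 83 without siControl plus DTPA replicate 2. Close to the sum were 533 of the 1788 genes that both single treatments called in 1 direction (347 down, 186 up), taken as those whose 95% interval lay within 0.3 of 0 on the log2 scale. Tubb3, a β-tubulin gene, was one that rose and added up on that scale, with 158, 160.1 and 163 TPM in siZIP10 plus DTPA, 82.5, 76.0 and 83.1 TPM in siZIP10, 122 and 104 TPM in siControl plus DTPA and 57.0, 59.4 and 57.9 TPM in siControl.

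The make-up of the double libraries also departed from the rest, which bears on every share of TPM. Mitochondrial ribosomal RNA took 1.44% to 1.45% of TPM in siZIP10 plus DTPA and 0.262% to 0.421% in the other libraries. Genes of cytosolic ribosomal proteins took 10.7% to 11.0% and 8.01% to 9.43%. Nuclear protein-coding genes, which include those of ribosomal proteins, took 77.3% to 79.6% in siZIP10 plus DTPA and 82.6% to 84.1% elsewhere. Other nuclear genes, of another class or without a match in the annotation, took 11.3% to 13.7% in siZIP10 plus DTPA and 8.93% to 10.4% elsewhere. Of 83 tested cytosolic ribosomal protein genes, 59 were above the sum and 4 below it (median 0.22), against 12.0% and 20.4% of all genes. On the other scales 54 to 69 were above the sum.

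Some transcripts known to lack a poly(A) tail were above the sum although the kit selects for that tail. Rn7sk (chromosome 9, 78175303 to 78175633), the small nuclear RNA that holds the elongation factor P-TEFb inactive, had 115, 153 and 130.3 TPM in siZIP10 plus DTPA, 31.6, 28.4 and 33.8 TPM in siZIP10, 19.3 and 26.6 TPM in siControl plus DTPA and 18.7, 37.8 and 24.4 TPM in siControl, an interaction of 2.23 (SE 0.32, limma adjusted p = 0.000417). Replication-dependent histone genes were a list added after the files were seen. Of 56 listed, 20 were tested, as averaging at least 1 TPM over libraries that include the double ones. Members low elsewhere could pass that limit through the double libraries, which favours values above the sum. Of the 20 tested, 12 were above the sum, 0 below it and 8 not called (median 1.11), against 12.0% above and 20.4% below of all genes. H4c9 had 69.9, 69.8 and 70.8 TPM in siZIP10 plus DTPA, 10.8, 16.8 and 10.9 TPM in siZIP10, 19.98 and 18.1 TPM in siControl plus DTPA and 19.3, 15.6 and 21.5 TPM in siControl (2.37), and H1f2, H2ac7 and H2bc18 were called with it. Malat1 and Neat1 together did not stand apart, with 0.067% to 0.089% of TPM in siZIP10 plus DTPA and 0.057% to 0.092% in the other libraries. Of 15 mitochondrial genome transcripts, mRNA and rRNA together, 6 were above the sum and 0 below it, against 12.0% and 20.4% of all genes. The 6 were led by the rRNA genes mt-Rnr2 (1.80) and mt-Rnr1 (1.29), and 2 were called after quantile normalization. Whether these shifts in RNA class take part in the other results was not tested beyond the rescaling to nuclear protein-coding genes given above.

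**Figure D5:**
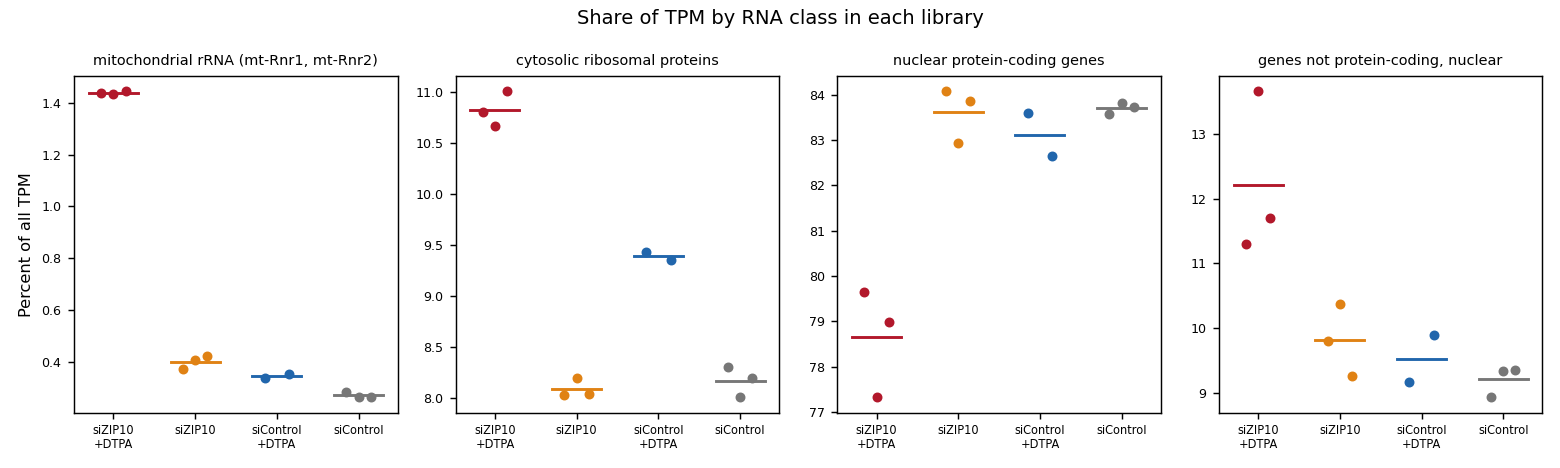
Share of TPM (percent) taken by RNA classes in each of the 11 libraries, by group. In the 3 siZIP10 plus DTPA libraries mitochondrial rRNA took 1.44% to 1.45% and nuclear protein-coding genes 77.3% to 79.6%, outside the range of the other 8 libraries.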

How the data were processed

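RNA was measured in 12 libraries of 4 groups, prepared with a stranded kit for poly(A) RNA, per the labels' protocols. The deposited values are TPM per gene, which the authors made from reads and which sum to 1e+06 in a library. The submitters' processing notes name the mm10 build and, in no stated order, edgeR, featureCounts, HISAT2 2.1.0, FastQC and Trimmomatic 0.33. Which annotation and which strand option served for counting is not given in the sources, so genes that overlap others, antisense pairs and near-identical copies are uncertain.

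Values were analysed as log2(TPM + 1) for genes averaging 1 TPM or more over 11 libraries. A model with 4 group means was fitted with limma 3.58.1 (trend on mean level, 7 residual degrees of freedom) in R 4.3.3. All p-values were two-sided, adjusted over the 11379 genes by the Benjamini-Hochberg method within a comparison, and called under 0.05. Tables and plots were made in Python 3.11.15 with pandas 2.3.3, numpy 2.4.6 and matplotlib 3.10.9. Gene positions and exon lengths came from GENCODE mouse release 21 and promoters from RefSeq. TPM multiplied by exon length fell on whole multiples of a unit per library, which gave reads: 98.9% to 99.2% of values of up to 20 reads were whole within 0.1 read. Those 11154 genes entered limma's voom as an alternative, which called 4216. On simulated data for the interaction over 11379 genes, 24.2%, 62.7% and 82.1% of genes changed by 0.3, 0.5 and 1 on the log2 scale were recovered, and 5 unchanged genes were called. Only 66 or 67 genes were changed at each size, with normal noise at each gene's own spread, whereas 32.4% of genes were called here. The Benjamini-Hochberg limit depends on that share, so these rates do not carry over to the calls above.

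The rule for named genes took Slc39a10, Mt1, Mt2 and Slc30a1, and, among genes averaging 5 TPM or more that were called whichever library was left out, the 8 highest and 8 lowest interactions and the 4 largest of each kind of shortfall and reversal. In each list up to 4 called members in the direction with more calls and up to 2 in the other were named. Mki67, Top2a, Aurka, Plk1, Ank1, Epb41, Hmgcs1, Sqle, Kpna2, Pcna, Tubb3, Tagln2, Dyrk3, Ccng1 and Cdkn1a were added as landmarks after their values were seen. Some genes that the rule takes are not reported here, but remain in the tests, counts and sums. The members and lists were chosen with earlier results of these data known.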

Additional observations from a re-analysis of the deposited data

Results flagged for a closer look

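For the following genes the DTPA effect in siZIP10 cells differed from the DTPA effect in siControl cells by limma's test of the difference itself (adjusted p under 0.05). Values are differences of the DTPA effects on log2(TPM + 1), positive where the DTPA effect was higher in siZIP10 cells. The groups held too few libraries for a search for single outlying libraries.

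Of the zinc genes, Slc39a10 was at -0.70, Mt1 at 0.41 and Slc30a1 at 0.95. For Slc39a10 the ratios of mean TPM with DTPA were close, 8.14-fold in siZIP10 cells and 8.05-fold in siControl cells. Its call was lost with a pseudocount of 0.1 and with voom. Among genes averaging 5 TPM or more whose call held whichever library was left out, the highest values were those of Car1 (2.69), Tph1 (2.55), Hdc (2.38), H4c9 (2.37), Hbb-bh1 (2.29), Rn7sk (2.23), Alpk3 (2.15) and Il2rg (1.96). The lowest among the same genes were those of Nusap1 (-2.90), Ube2c (-2.84), Hmmr (-2.77), Slc4a1 (-2.77), Esco2 (-2.56), Ccnb1 (-2.39), Creb3l3 (-2.29) and Kif4 (-2.24). Of these, Nusap1, Ube2c, Hmmr and Kif4 lay above the sum on untransformed TPM. Among the highest, Tph1, Hdc and Il2rg stayed under 5 TPM in every library outside siZIP10 plus DTPA. They passed the limit of 5 TPM only through the double libraries, so their place in this ranking is partly set by the limit.

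Where the sum was upward and the double change fell short of it, Ypel4 was at -0.98, Rpl34-ps2 at -0.98, Tspo2 at -0.95 and Tuft1 at -0.76. Where the sum was downward and the double change fell short of it, Sapcd2 was at 1.31, Cyba at 0.93, Gemin6 at 0.77 and Tcf19 at 0.71. A reversal upward was also called for Rpl27-ps3 (1.57), and reversals downward for Defb4 (-2.14), Hyal3 (-1.56), Csta2 (-1.51) and S100a1 (-1.51). The double change of Rpl27-ps3 against siControl did not pass the test (limma adjusted p = 0.384). The sums of the 4 genes reversed downward did not pass the test (limma adjusted p of 0.0623 to 0.940). Defb4 rested on 1 to 6 recovered reads in the siZIP10 plus DTPA libraries.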

How the results depend on the processing

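The number of called genes was 3641 with the replicate block and 2992 to 3518 when single libraries were left out, and 2449 at an adjusted p under 0.01. It was 3700 with the repeated library kept under its label, 3323 of 20855 genes with no filter and 3549 of 8919 genes at a mean of at least 5 TPM. Genes higher than the sum were 2118 after rescaling to nuclear protein-coding genes and 813 at 0.01. At 0.01, genes that fell short were 149 and reversals 631. Opposite DTPA effects were 195 with median-of-ratios scaling, 198 with voom, 59 at 0.01 and 73 to 125 without single libraries; the cause was not tested. Strict reversals were 45 at 0.01, 75 without siControl replicate 2 and 70 without siControl replicate 3. Slc39a10 turned to 0.58 with the repeated library kept and 0.057 with voom, and was -0.10 with a pseudocount of 0.1, no longer called. Mt1 turned to -0.73 with that library kept and to -193.7 TPM on untransformed TPM. Mt2, not called at 0.11, was 0.28 without siControl plus DTPA replicate 1 and turned to -0.02 without siZIP10 plus DTPA replicate 2, -0.062 without siControl plus DTPA replicate 2, -2.24 with that library kept and -369.0 TPM untransformed, where it was called. Nusap1, Ube2c, Hmmr and Kif4 turned to 18.5, 23.4, 10.8 and 5.73 TPM on untransformed TPM, where a fall cannot exceed the level left, and Ccnb1 was no longer called (-10.4 TPM). Rpl34-ps2 was no longer called with voom (-1.04). Depth limits values under about 1 TPM, such as Defb4. Replicate numbers did not pair the libraries: deviations of same-numbered libraries correlated at -0.06 to 0.06.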

Other observations

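Energy metabolism and redox genes, not described above, were called below the sum of the single treatments more often than above it. Of 77 tested nuclear genes of the respiratory chain, 51 were below it and 2 above it, against 20.4% and 12.0% of all genes, with a median of -0.29. Cox6a1, a subunit gene of cytochrome oxidase, averaged 1066 ± 12.9 TPM in siZIP10 plus DTPA, 1770.2 ± 63.0 TPM in siZIP10, 1872 ± 33.2 TPM in siControl plus DTPA and 1989 ± 124 TPM in siControl (SD, n = 3, 3, 2 and 3). Of 19 glycolysis genes, 9 were below and 3 above (median -0.26), with the red cell pyruvate kinase gene Pklr at -1.57, the glucose transporter gene Slc2a3 at -1.14 and the hexokinase gene Hk2 at 0.95. NRF2 targets were below the sum in 13 of 20 cases and above it in 2 (Nqo1 at -1.47), and genes of peroxide and superoxide defence in 8 of 14 and 0 (Gpx1 at -1.07, Prdx2 at -0.97). Of 35 proteasome subunit genes 26 were below the sum and 1 above it (median -0.23).

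All counts of the lists that follow are to be read against 20.4% below and 12.0% above of all genes. ATF4 targets were below the sum in 10 of 20 cases and above it in 1, with Nupr1 at -1.48 and Cebpb at 1.11. Of 30 ribosome biogenesis genes, 11 were above the sum, 3 below it and 16 not called. The 11 became 6 without siZIP10 plus DTPA replicate 1 or 3, 5 without siZIP10 replicate 2 and 3 without siControl plus DTPA replicate 2. Of 20 endoplasmic reticulum chaperone genes, 6 were above the sum (Hspa5 at 0.25), 2 below it and 12 not called. For aminoacyl-tRNA synthetases the count was 12 below and 2 above of 20, for autophagy and mitophagy 11 and 3 of 20 (Bnip3 at -0.76), and for mitochondrial ribosomal proteins 25 and 0 of 77. Iron genes stood at 8 below and 3 above of 16, a balance that turned to 2 below and 4 above after quantile normalization. Smaller counts, to be read against 20.4% below and 12.0% above of all genes, were those of heat shock genes (6 below, 1 above of 17), G1 cyclins and inhibitors (5 and 1 of 11), one-carbon enzymes (4 and 2 of 14), interferon genes (3 and 0 of 11), the E2F family (2 and 0 of 12, but 2 below and 3 above after rescaling to nuclear protein-coding genes) and DNA methylation (0 and 1 of 8). Of 253 numbered zinc finger protein genes, 32 were above the sum and 22 below it.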
